A study of Mus musculus with 24 samples.

Results

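A set of 46 cell cycle and DNA replication genes was followed in mouse gut at embryonic day 12.5 (E12.5) through loss of Ret, of Sema3d, and of both genes. The set was chosen by gene symbol. It holds 21 genes of mitosis, 19 genes of DNA replication, 3 D-type cyclins and 3 cyclin-dependent kinase inhibitors of the Cip/Kip family. Every one of the 46 was listed in each of the 4 tables, out of 24602 to 26260 genes per table, and no filter on low values removed any. Whole guts came from 6 Ret-Sema3d double null embryos, 6 Ret null embryos, 6 Sema3d null embryos and 6 wildtype embryos, with 3 females and 3 males in each group. The nulls are homozygotes, and all 4 groups share a mixed C57BL/6, 129/Sv and C3H background. Each gut gave a stranded poly-A library read as 100 bp pairs. Ret encodes the receptor for GDNF-family ligands that neural crest cells need to colonise the gut as enteric neurons and glia, and Sema3d encodes a secreted semaphorin guidance cue. The study asked whether the 2 genes interact in building the enteric nervous system.

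Progress through the cell cycle is driven by cyclins bound to cyclin-dependent kinases. D-type cyclins couple growth signals to the exit from G1 by phosphorylating the retinoblastoma protein, which frees E2F factors to switch on DNA replication genes, and Cip/Kip proteins hold the kinases back. At replication origins the MCM helicase is loaded in G1 and is started in S phase together with CDC45 and the GINS complex. In G2 and mitosis, cyclin A and B kinases, Aurora and Polo kinases and kinesin motors build the spindle, and the anaphase-promoting complex ends mitosis by destroying cyclins. Most mitosis and replication genes are transcribed mainly in dividing cells. In whole-gut RNA, fewer cells of a type and less RNA per cell cannot be told apart.

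Promoter elements known from E2F-controlled and G2/M genes are shown here in 4 members that come up again in the results. RefSeq promoter sequence on GRCm38.p6 was matched for 34 of the 46 members, and the 250 bases before each start were searched on both strands. The elements were the CHR element (TTTGAA or TTTAAA), the CCAAT box (CCAAT) and an E2F element (TTTGGCGC, TTTCGCGC or TTTCCCGC). Capitals mark every match, read on the gene's strand, so that ATTGG is a CCAAT box on the other strand and matches that overlap run together. Ccnb1, at chr13:100786487-100786736 on the minus strand, and Cdc20, at chr4:118437344-118437593 on the minus strand, are mitosis genes. Mcm5, at chr8:75109259-75109508 on the plus strand, and Mcm6, at chr1:128359706-128359955 on the minus strand, encode helicase subunits.
Ccnb1: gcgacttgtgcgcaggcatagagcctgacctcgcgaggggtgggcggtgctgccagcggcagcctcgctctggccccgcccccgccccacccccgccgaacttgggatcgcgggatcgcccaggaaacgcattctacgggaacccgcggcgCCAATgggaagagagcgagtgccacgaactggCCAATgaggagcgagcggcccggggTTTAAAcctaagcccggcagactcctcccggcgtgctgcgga
Cdc20: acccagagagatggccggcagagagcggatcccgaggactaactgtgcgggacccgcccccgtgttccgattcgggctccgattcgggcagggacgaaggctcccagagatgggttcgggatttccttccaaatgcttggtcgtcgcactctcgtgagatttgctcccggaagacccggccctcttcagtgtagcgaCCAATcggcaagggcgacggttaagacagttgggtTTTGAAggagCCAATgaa
Mcm5: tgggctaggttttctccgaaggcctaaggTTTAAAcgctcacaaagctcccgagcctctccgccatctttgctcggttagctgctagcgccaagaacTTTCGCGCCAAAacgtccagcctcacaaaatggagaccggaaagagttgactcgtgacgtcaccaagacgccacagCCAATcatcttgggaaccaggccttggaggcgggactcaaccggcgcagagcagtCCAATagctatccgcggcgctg
Mcm6: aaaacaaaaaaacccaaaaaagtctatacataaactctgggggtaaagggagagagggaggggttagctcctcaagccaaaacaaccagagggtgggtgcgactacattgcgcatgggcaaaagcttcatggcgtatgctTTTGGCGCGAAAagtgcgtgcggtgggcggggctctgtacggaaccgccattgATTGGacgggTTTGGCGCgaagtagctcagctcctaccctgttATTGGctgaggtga

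Ccnb1 and Cdc20 each had 1 CHR element, 2 CCAAT boxes and no E2F element. Mcm5 and Mcm6 each had 2 CCAAT boxes, and the E2F matches numbered 2 in Mcm5 and 3 in Mcm6. Mcm5 also had 1 CHR element, and Mcm6 had none. No other replication member matched here had more than 1 E2F match. Among mitosis members, 11 of 17 windows (64.7%) held a CHR element, against 25.2% of all 32851 promoter windows. Among replication members it was 4 of 15 (26.7%). A CCAAT box stood in 15 of the 17 mitosis windows (88.2%) and in 11 of 15 replication windows (73.3%), against 33.9% of all windows. Both elements together were found in 10 of 17 mitosis windows (58.8%) and 3 of 15 replication windows (20%), against 8.78% of all windows. The E2F element was found in 4 of 15 windows of replication members (26.7%) and in 1 of 17 windows of mitosis members, against 1.53% of all windows. These matches are descriptions of the letters in these windows and not evidence of binding.

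The targets and cell markers set the frame for the members. In the 24-gut fit, the fitted level of Ret was 1.15 normalised counts in double null, 4.72 in Ret null, 1328 in Sema3d null and 1523 in wildtype guts. Sema3d stood at 395.7 in double null, 677 in Ret null, 388.6 in Sema3d null and 815 in wildtype guts, so Sema3d RNA was still present in both genotypes that carry its null allele. The labels do not describe the alleles, and RNA level does not check them fully. Markers of enteric neurons summed to 2.37% of the wildtype level in double null, 2.41% in Ret null and 91.2% in Sema3d null guts, and 10 of 10 were called lower in the authors' deposited tables for both double null and Ret null. Ret itself is among these 10, so its low value in both genotypes follows from the genotype. Its 1523 normalised counts are part of the wildtype sum of 4239. Glial and crest progenitor markers summed to 43.1%, 41.7% and 90.3% of wildtype in double null, Ret null and Sema3d null guts. Summed endothelial markers were at 121%, 99.6% and 108% of wildtype in the same order of genotypes, macrophage markers at 94.1%, 83.7% and 96.8%, and erythroid markers at 109%, 116% and 127%. Liver and pancreas markers summed to 181%, 47.2% and 173%, but none of the 6 was called in any of these genotypes, and their log2 changes ran both ways. In Ret null guts they were -3.58 for Alb and 0.24 for Pdx1 in the authors' deposited table, and in double null guts their median was 0.035 with 2 of 6 below 0. Cdx1, an intestinal epithelial factor, was near 0 in all 4 genotypes, at 1.67 to 3.12, while gut epithelial markers as a whole summed to 101% to 104% of wildtype and smooth muscle and mesenchyme markers to 104% to 105%. Where any of these markers moved with a member, their part in the result was not tested.

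Cyclin D1 was the only member called in any comparison. At an adjusted p below 0.05, 1 of 46 members was called lower and 0 higher in the authors' deposited table for double null against wildtype, where 2.1% of all genes were called, and 1.87% of all genes lower. The authors' deposited table for Ret null against wildtype likewise called 1 member lower and 0 higher, with 2.66% of all genes called and 2.27% called lower. Members with an unadjusted p below 0.05 numbered 4 in double null and 5 in Ret null guts, against 6.71% and 8.43% of all genes in the authors' deposited tables. With the authors' DESeq likelihood ratio test, 0 of 46 members were called in Sema3d null against wildtype, and 1 member had an unadjusted p below 0.05; the authors' deposited table called 0.0404% of all genes there, and 4.53% had an unadjusted p below 0.05. The interaction of Ret and Sema3d called 0 of 46 by the same test in the authors' deposited table, where 0.164% of all genes were called and 4 members had an unadjusted p below 0.05, as did 6.79% of all genes.

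Ccnd1 (ENSMUSG00000070348.5; chr7:144929931-144939925, minus strand, GRCm38) encodes cyclin D1, the kinase partner that links mitogen signals to G1 exit. Its fitted level, in normalised counts of the 24-gut fit, was 1669 in double null, 1703 in Ret null, 2324 in Sema3d null and 2451 in wildtype guts. Both genotypes without Ret were low, and Sema3d null lay close to wildtype; the spread among guts is not in the tables. In the authors' deposited table the log2 change was -0.55 ± 0.060 in double null guts, with a derived 95% interval of -0.67 to -0.44 and a level 68.2% of wildtype (± gives the error derived for the coefficient). The Ret null change in the authors' deposited table was -0.53 ± 0.062, with an interval of -0.65 to -0.41 and a level 69.4% of wildtype. The p-values for both are listed as 0 in the authors' deposited tables, and the deposited deviances give DESeq adjusted p-values of 3.35e-18 in double null and 2.08e-15 in Ret null guts. Sema3d null guts had a Ccnd1 change of -0.072 ± 0.087 in the authors' deposited table (DESeq adjusted p = 1.00). The double null minus Ret null difference was -0.029 ± 0.075, with an interval of -0.18 to 0.12, and the interaction coefficient in the authors' deposited table was 0.049 ± 0.11 (DESeq adjusted p = 0.997). Enteric neuron and glial markers were low in the same 2 genotypes as Ccnd1, and their part in the Ccnd1 result was not tested.

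**Figure D1:**
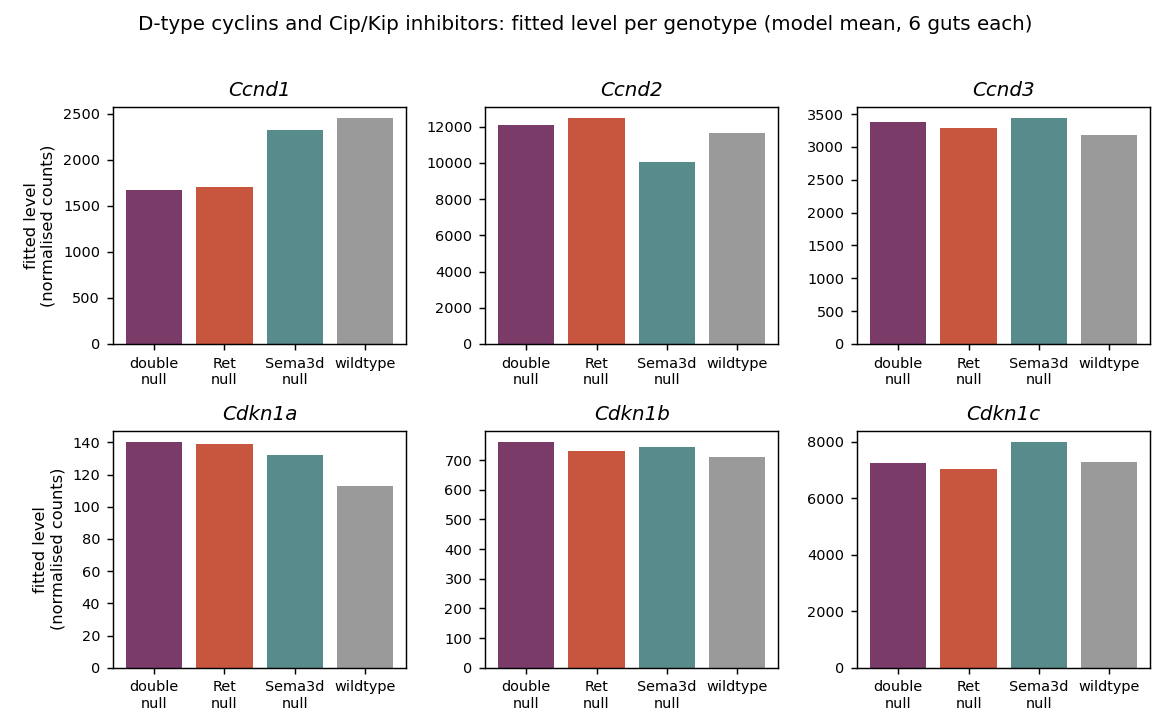
Fitted level (normalised counts, linear axis from 0) of the 3 D-type cyclins and 3 Cip/Kip inhibitors in double null, Ret null, Sema3d null and wildtype guts; each bar is the model mean of 6 guts from the 24-gut fit, with no error bar because the tables hold no value per gut. Ccnd1 is lower in the first pair of bars, at 1669 and 1703, than in Sema3d null (2324) and wildtype (2451), and the other 5 genes were not called.

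The other D-type cyclins were not called. Ccnd2 encodes cyclin D2, and its fitted level was 12103 in double null, 12476 in Ret null, 10036 in Sema3d null and 11652 in wildtype guts. Its log2 change in the authors' deposited tables was 0.053 ± 0.045 in double null, 0.10 ± 0.058 in Ret null and -0.21 ± 0.084 in Sema3d null guts. The Sema3d null value had the smallest p among the members in that table and did not pass the adjustment (DESeq adjusted p = 0.884 in the authors' deposited table). Ccnd2 lies 8.93 Mb from Ret on chromosome 6. Carry-over of strain background around Ret in double null and Ret null guts was not tested. Ccnd3, encoding cyclin D3, had a fitted level of 3373 in double null, 3290.2 in Ret null, 3439 in Sema3d null and 3181 in wildtype guts, and its changes in the authors' deposited tables were 0.085 ± 0.049, 0.049 ± 0.045 and 0.12 ± 0.086 in double null, Ret null and Sema3d null guts. Per kilobase of transcript, the wildtype level was highest for Ccnd2 at 1841 normalised counts, then Ccnd3 at 1505 and Ccnd1 at 655. Summed over the D-type cyclins, the fitted level was 99.2% of wildtype in double null, 101% in Ret null and 91.4% in Sema3d null guts.

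None of the Cip/Kip inhibitors was called. Cdkn1a encodes p21, an inhibitor induced by p53, and had the lowest wildtype level per kilobase of the 46 members, 54.2. Its fitted level was 140.2 in double null, 139 in Ret null, 132 in Sema3d null and 113 in wildtype guts. The 3 mutant genotypes all had a higher fitted level than wildtype, with log2 changes in the authors' deposited tables of 0.32 ± 0.16 in double null (DESeq adjusted p = 0.721), 0.30 ± 0.12 in Ret null (0.261) and 0.23 ± 0.14 in Sema3d null guts (1.00). These comparisons share the wildtype guts, and none of the values passed the adjustment. Of 12 other p53 target genes, 0 were called in any table by the DESeq test, and the 2 with an unadjusted p below 0.05 in Ret null guts, Trp53inp1 (-0.17 ± 0.069) and Zmat3 (-0.16 ± 0.066), were lower in the authors' deposited table. Over all genes, 8.43% had an unadjusted p below 0.05 in Ret null guts. Cdkn1b (p27) had log2 changes of 0.10 ± 0.062, 0.044 ± 0.061 and 0.066 ± 0.15 in the authors' deposited tables for double null, Ret null and Sema3d null guts. Cdkn1c (p57), an imprinted gene, was the most abundant of the 3 inhibitors per kilobase, at 3825 in wildtype against 156 for Cdkn1b. Its changes in the authors' deposited tables were -0.0070 ± 0.077 in double null, -0.046 ± 0.048 in Ret null and 0.14 ± 0.085 in Sema3d null guts.

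Replication genes were close to wildtype in every genotype. No member of this group was called, and their summed fitted level was 98.8% of wildtype in double null, 103% in Ret null and 97.02% in Sema3d null guts. In the authors' deposited Ret null table, 17 of 19 replication members lay above 0, with a median log2 change of 0.061, where 46.1% of all genes at a fitted level of at least 50 lay below 0. In double null guts 10 of 19 were below 0, with -0.0055 as the median in the authors' deposited table. In Sema3d null guts 14 of 19 were below 0 in the authors' deposited table, with a median of -0.033, where 49.1% of all genes at that level were below 0. The 19 genes were measured in the same guts and scaled together, so their directions are not independent of each other.

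Mcm6 came nearest to a call among the replication genes. It encodes a subunit of the MCM helicase, and its fitted level was 3329 in double null, 3552 in Ret null, 3342 in Sema3d null and 3219 in wildtype guts. The log2 change in the authors' deposited tables was 0.048 ± 0.049 in double null, 0.14 ± 0.045 in Ret null (DESeq adjusted p = 0.0633) and 0.057 ± 0.086 in Sema3d null guts. The other helicase subunits, Mcm2, Mcm3, Mcm4, Mcm5 and Mcm7, had Ret null changes of 0.018 to 0.073 in the authors' deposited table. Mcm7 had the lowest double null value of the 6, at -0.11 ± 0.061 in the authors' deposited table, and Mcm4 the lowest Sema3d null value, at -0.16 ± 0.086. Per kilobase, the 6 subunits had fitted wildtype levels between 658 and 928, and none was called in any genotype.

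The factors that load and start the helicase were not called either. Cdt1, which loads the MCM complex, had a fitted level of 865 in double null, 919 in Ret null, 946 in Sema3d null and 852 in wildtype guts. Its changes in the authors' deposited tables were 0.021 ± 0.060, 0.11 ± 0.058 and 0.15 ± 0.093 in double null, Ret null and Sema3d null guts. Cdc6, its partner at the origin, had values of 0.044 ± 0.078, 0.016 ± 0.066 and -0.13 ± 0.10 in the same tables deposited by the authors. Gins1 and Gins2 encode subunits of the GINS complex. Gins1 had a fitted level of 233 in double null, 268 in Ret null, 250.4 in Sema3d null and 246 in wildtype guts, and Gins2 of 465 in double null, 504 in Ret null, 447 in Sema3d null and 456 in wildtype guts. The authors' deposited table gave Ret null changes of 0.12 ± 0.088 for Gins1 and 0.14 ± 0.070 for Gins2, and Cdc45, the third part of the active helicase, had a value of 0.079 ± 0.073. Both Gins genes had their highest fitted level in Ret null guts.

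Nucleotide supply, fork and E-type cyclin genes completed the replication group. Tyms, which makes thymidylate, had a fitted level of 986 in double null, 1048 in Ret null, 1007 in Sema3d null and 948 in wildtype guts, and its Ret null change in the authors' deposited table was 0.14 ± 0.056 (DESeq adjusted p = 0.231). Rrm1 and Rrm2, the ribonucleotide reductase subunits, had log2 changes of -0.056 ± 0.048 and -0.058 ± 0.067 in double null, 0.010 ± 0.045 and -0.0033 ± 0.067 in Ret null, and -0.10 ± 0.086 and -0.13 ± 0.095 in Sema3d null guts, by the authors' deposited tables. Pcna, the sliding clamp, had the widest Ret null error among the replication genes, at -0.065 ± 0.092 in the authors' deposited table. Pole, the leading-strand polymerase, and Prim1, the primase, had Ret null changes of 0.061 ± 0.073 and 0.10 ± 0.061 in the authors' deposited table. The E-type cyclins Ccne1 and Ccne2, which start S phase, lay at -0.038 ± 0.067 and 0.055 ± 0.070 in double null guts, by the authors' deposited table.

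Mitosis genes showed no call in any genotype, and in double null guts all 21 lay slightly below 0. Their summed fitted level was 97.5% of wildtype in double null, 102% in Ret null and 95.5% in Sema3d null guts. In the authors' deposited table for double null, the 21 log2 changes ran from -0.11 (Cdc20) to -0.0061 (Birc5), with a median of -0.051, while 47% of all genes at a fitted level of at least 50 lay below 0. The median gene lay at 0.0057, so centring on it could only move these values further below 0 and is no check on their direction. The authors' deposited Ret null table had 17 of the 21 above 0, or 14 once changes were centred on the median gene, with a median of 0.035 and a range of -0.081 (Cenpe) to 0.11 ± 0.057 (Birc5). In Sema3d null guts 15 of 21 were below 0 in the authors' deposited table, with a median of -0.036. As with the replication genes, the directions of the 21 are not independent of each other, here or in the contrasts below. No single value passed the adjustment, and the median derived error of the 21 was 0.055 in double null, 0.053 in Ret null and 0.090 in Sema3d null guts. The endothelial marker sum was 121% of wildtype in double null guts, where 5 of 6 endothelial markers were called higher in the authors' deposited table, and its part in the mitosis values was not tested.

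**Figure D2:**
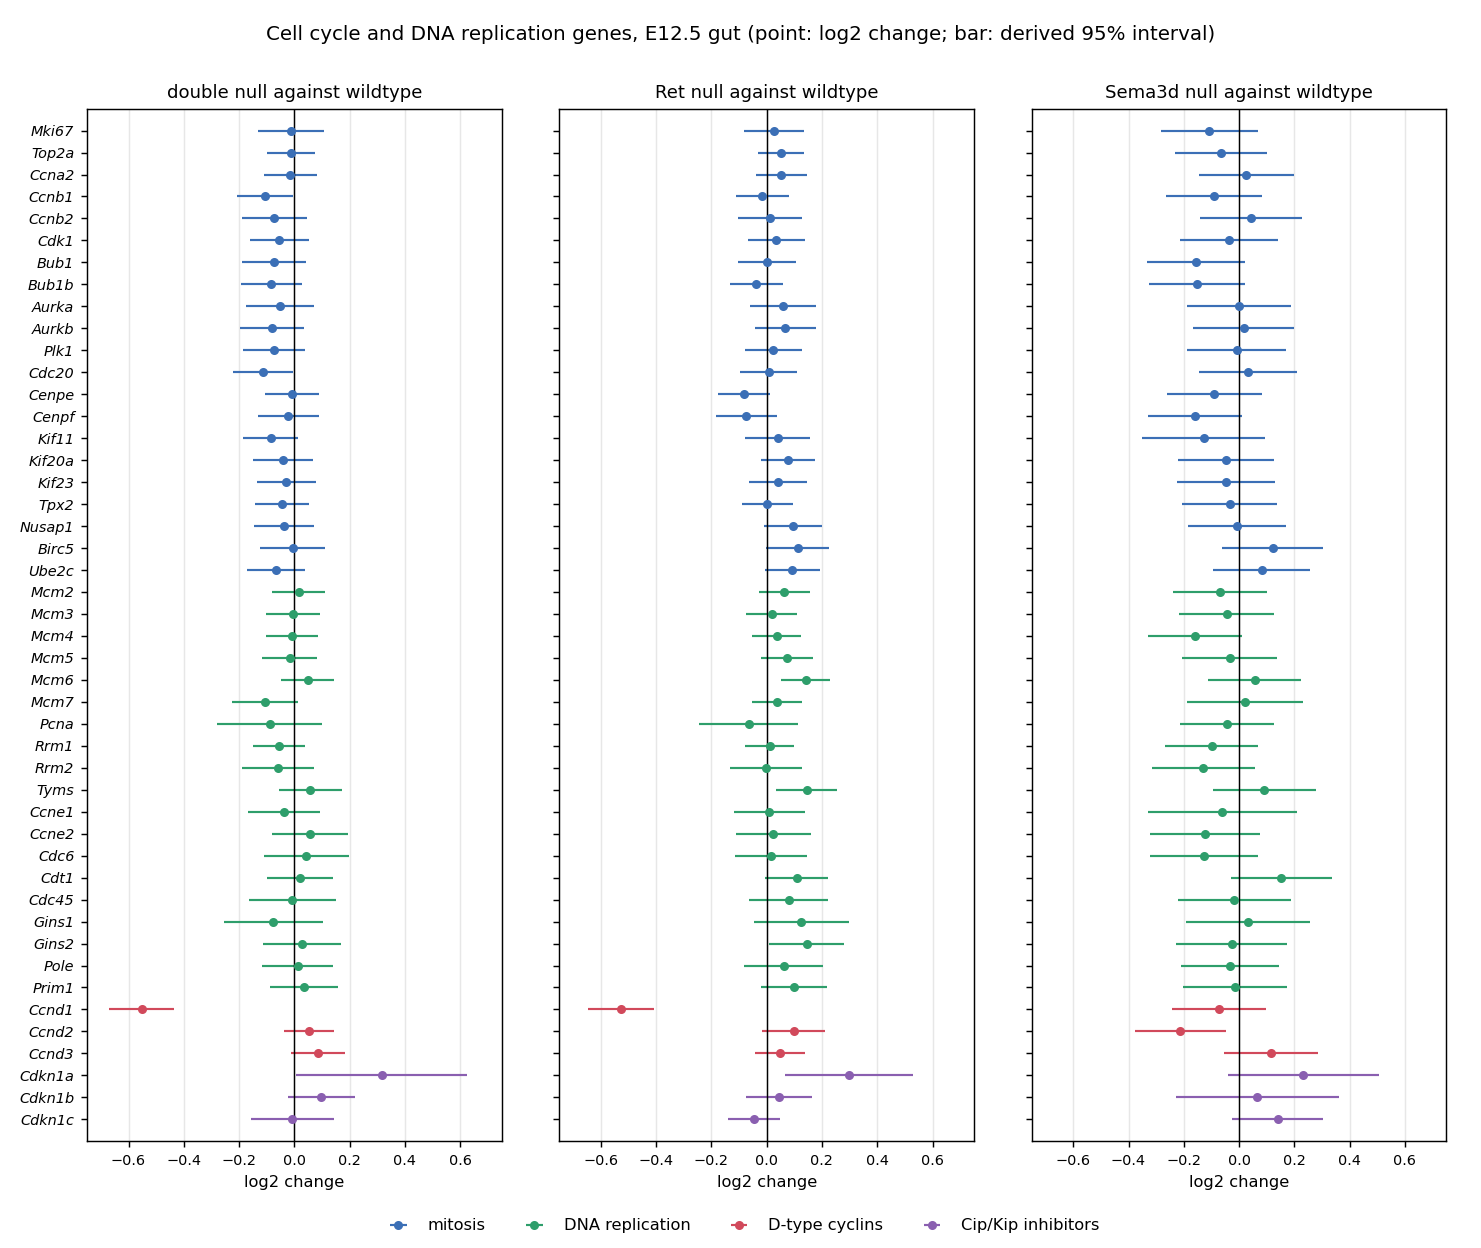
Log2 change against wildtype (x axis) of all 46 members (rows, coloured by role) in double null, Ret null and Sema3d null guts; points are the deposited coefficients and bars the derived 95% intervals. Ccnd1 stands apart at -0.55 in double null and -0.53 in Ret null, and the 21 mitosis genes all lie between -0.11 and -0.0061 in double null.

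Cyclin B1 and CDC20 were the mitosis genes with the smallest p in double null guts. Ccnb1 encodes the cyclin that drives entry into mitosis, and its fitted level was 1766 in double null, 1882 in Ret null, 1781 in Sema3d null and 1902 in wildtype guts. The authors' deposited table gave a double null change of -0.11 ± 0.051 (DESeq adjusted p = 0.661), and the Ret null and Sema3d null changes were -0.016 ± 0.049 and -0.092 ± 0.088. Cdc20, which activates the anaphase-promoting complex, had a fitted level of 1202 in double null, 1308 in Ret null, 1328 in Sema3d null and 1301 in wildtype guts. Its change in the authors' deposited tables was -0.11 ± 0.055 in double null (DESeq adjusted p = 0.673), 0.0070 ± 0.053 in Ret null and 0.032 ± 0.090 in Sema3d null guts. Both promoters are printed above with their CHR and CCAAT matches. The remaining mitotic cyclin and kinase genes, Ccna2, Ccnb2 and Cdk1, had double null changes of -0.014 ± 0.050, -0.072 ± 0.061 and -0.055 ± 0.054 in the authors' deposited table.

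Spindle checkpoint, kinase and motor genes were not called either. The checkpoint kinase genes Bub1 and Bub1b had Sema3d null changes of -0.16 ± 0.091 and -0.15 ± 0.088 in the authors' deposited table, among the lowest of the mitosis group. Their double null changes were -0.074 ± 0.059 and -0.083 ± 0.056, and their Ret null changes 0.00027 ± 0.053 and -0.038 ± 0.049, in the authors' deposited tables. Aurkb, the Aurora kinase of the chromosomal passenger complex, had a fitted level of 885 in double null, 982 in Ret null, 945 in Sema3d null and 936 in wildtype guts. Aurka and Plk1, kinases of the spindle poles, had double null changes of -0.051 ± 0.063 and -0.072 ± 0.057 in the authors' deposited table. The kinesin genes Kif11, Kif20a and Kif23 had log2 changes of -0.085 ± 0.051, -0.043 ± 0.055 and -0.029 ± 0.055 in double null guts, and the spindle genes Tpx2 and Nusap1 of -0.043 ± 0.050 and -0.037 ± 0.056, in the authors' deposited table. Mki67 and Top2a, in wide use as markers of dividing cells, had double null changes of -0.011 ± 0.061 and -0.012 ± 0.045, Ret null changes of 0.026 ± 0.055 and 0.052 ± 0.042, and Sema3d null changes of -0.11 ± 0.089 and -0.066 ± 0.085 in the authors' deposited tables. Top2a and Mki67 had the highest fitted wildtype levels per kilobase of the mitosis group, 1547 and 1004.

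The derived intervals bound how large a change could have gone unseen. In double null guts, 44 of 46 members had a 95% interval wholly between 0.8 and 1.25 times the wildtype level, and the exceptions were Ccnd1 and Cdkn1a. The same count, with the same exceptions, held in Ret null guts. Sema3d null guts had 35 of 46 inside these bounds, with a median derived error of 0.090 against 0.058 in double null and 0.054 in Ret null guts. The share of all genes inside these bounds was not counted, so the counts do not set the members apart from other genes. Over all genes at a fitted level of at least 50, the median derived error was 0.079 in double null, 0.078 in Ret null and 0.11 in Sema3d null guts. The intervals describe whole gut and not any single cell type within it.

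Double null guts were next set against Ret null guts, which asks what loss of Sema3d adds where Ret is already missing. No member was called in this contrast, derived from the 24-gut table with a two-sided normal test and Benjamini-Hochberg adjustment over all genes, where 0.0262% of all genes were called (6 genes, or 24 with errors from the 12-gut tables, which also called no member). At an unadjusted p below 0.05 there were 2 members, against 3.62% of all genes. The difference was below 0 for 38 of 46 members, with a median of -0.068, while 50.6% of all genes at a fitted level of at least 50 lay below 0 and their median was -0.0016. By role, 19 of 21 mitosis genes and 17 of 19 replication genes were below 0, with medians of -0.091 and -0.065. Cenpe and Cenpf, both kinetochore genes, were the mitosis members above 0, at 0.074 ± 0.075 and 0.053 ± 0.075. Among replication members Ccne2 and Cdc6 were above 0, at 0.026 ± 0.088 and 0.026 ± 0.086.

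Ube2c and Gins1 had the smallest p in that contrast. Ube2c encodes the ubiquitin-conjugating enzyme of the anaphase-promoting complex, and its fitted level was 1395 in double null, 1558 in Ret null, 1543 in Sema3d null and 1461 in wildtype guts. Its double null minus Ret null difference was -0.16 ± 0.077 (adjusted p = 1.00, two-sided normal test on the authors' coefficients). Gins1 differed by -0.20 ± 0.10 (adjusted p = 1.00, by the same test on the coefficients of the authors), and it was the only member whose interval left the bounds of 0.8 to 1.25 times the Ret null level. Aurkb, Mcm7, Nusap1 and Kif20a had differences of -0.15 ± 0.080, -0.14 ± 0.084, -0.13 ± 0.078 and -0.12 ± 0.076. The fitted level of Kif20a was 1695 in double null, 1842 in Ret null, 1687 in Sema3d null and 1746 in wildtype guts. Endothelial markers lay above 0 for 6 of 6 genes in this contrast, with a median of 0.24, and macrophage markers likewise for 6 of 6, with a median of 0.16. None of these 12 was called. By the same normal test, 6 of 6 endothelial and 2 of 6 macrophage markers had an unadjusted p below 0.05, against 3.62% of all genes. Of the liver and pancreas markers, 4 of 6 had a derived error here, and 2 of the 4 lay below 0. Their part in the members' values was not tested.

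The other test of Sema3d loss, Sema3d null against wildtype, shares no gut with double null against Ret null. Members were below 0 in both contrasts in 27 of 46 cases (58.7%) and above 0 in both in 4 cases (8.70%). Over all genes at a fitted level of at least 50 these shares were 20.2% and 20.4%. Members leaned below 0 in each contrast taken alone, 31 of 46 in Sema3d null and 38 of 46 in double null minus Ret null. The count below 0 in both follows in large part from these 2 leanings, so it does not show a link between the contrasts. No member was called in either contrast, so the shared direction describes small values that did not pass a test one by one.

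**Figure D3:**
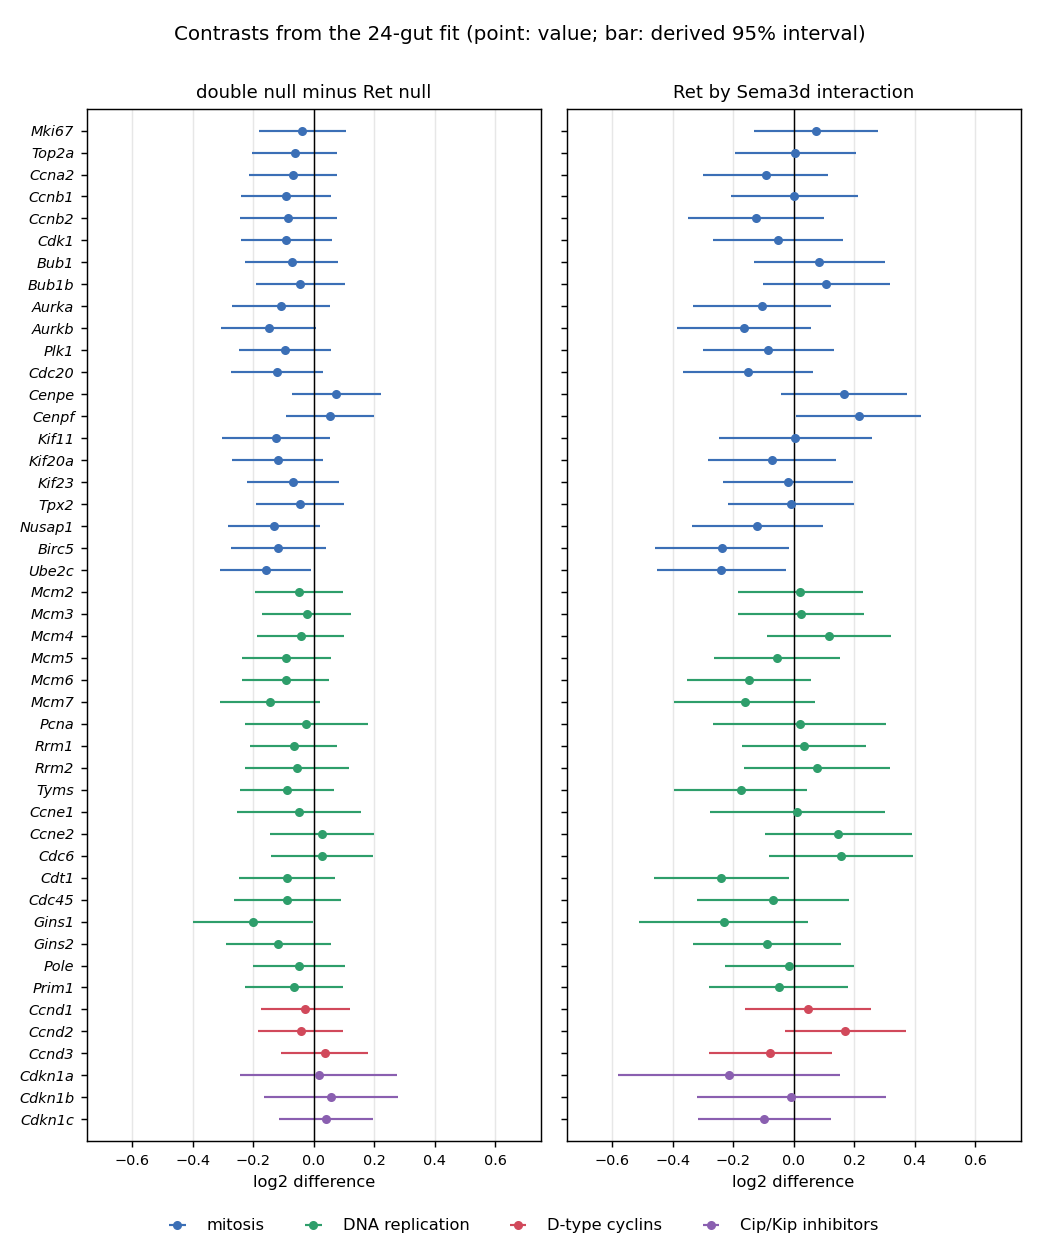
Double null minus Ret null difference (left) and Ret by Sema3d interaction coefficient (right) of all 46 members on the log2 scale; points are values of the 24-gut fit and bars derived 95% intervals. In the left panel 38 of 46 points lie below 0 with a median of -0.068, and in the right panel 27 of 46 lie below 0.

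The interaction asks whether loss of both genes differs from the sum of the single losses on the log2 scale. No member passed, and 27 of 46 coefficients were below 0 in the authors' deposited table, with a median of -0.033, against 50.2% of all genes at a fitted level of at least 50. The 4 members with an unadjusted p below 0.05 were Ube2c at -0.24 ± 0.11, Birc5 at -0.24 ± 0.11, Cdt1 at -0.24 ± 0.11 and Cenpf at 0.21 ± 0.11, and in the authors' deposited table their DESeq adjusted p-values were 0.642, 0.69, 0.687 and 0.712. Birc5 encodes survivin, a passenger protein of the Aurora B complex, with a fitted level of 885 in double null, 961 in Ret null, 966 in Sema3d null and 889.6 in wildtype guts. Its fitted level was higher in both single nulls than in double null and wildtype guts. Cenpf, a kinetochore protein gene, had the opposite order, with a fitted level of 2736 in double null, 2638 in Ret null, 2480.2 in Sema3d null and 2775 in wildtype guts. Its Sema3d null change in the authors' deposited table was -0.16 ± 0.087. Next in order of p came Ccnd2 and Gins1, with interaction coefficients of 0.17 ± 0.10 and -0.23 ± 0.14 in the authors' deposited table. The median derived error of the 46 was 0.11, against 0.14 over all genes at a fitted level of at least 50. Of the 46 intervals, 26 lay within 0.8- to 1.25-fold, a share that was not counted over all genes.

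The interaction coefficients were ordered by transcript length. Across the 46 members, Spearman's rho between the longest annotated transcript (GENCODE M21 basic set) and the coefficient in the authors' deposited table was 0.55, and over all 12388 genes at a fitted level of at least 50 it was 0.54. The 23 shorter members (1087 to 3334 bases) had a median coefficient of -0.097, with 17 below 0. The 23 longer members (3371 to 11130 bases) had a median of 0.0058, with 10 below 0. For Sema3d null against wildtype the rho was -0.54 over members and -0.50 over all genes, for Ret null -0.11 and -0.23, for double null 0.21 and 0.091, and for double null minus Ret null 0.27 and 0.33. These correlations are across genes that share libraries, so they carry no p. An order of the same sign was present over the whole table, and its part in the members' interaction values was not tested.

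**Figure D4:**
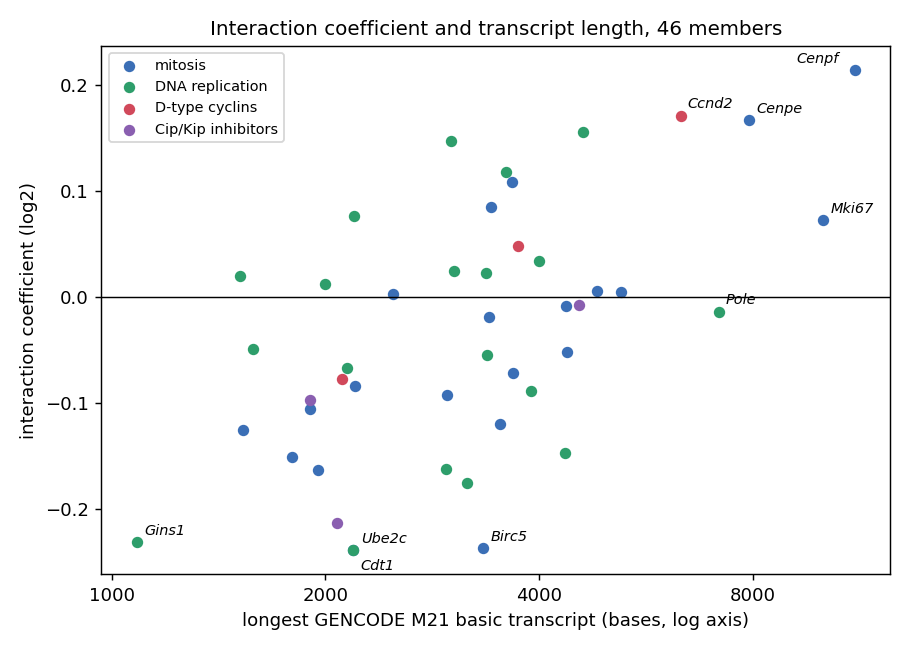
Ret by Sema3d interaction coefficient (log2) of the 46 members against the length of the longest annotated transcript (bases, log axis), coloured by role. Short transcripts such as Gins1, Ube2c and Cdt1 lie near the bottom and long ones such as Cenpe and Cenpf near the top, with Spearman's rho 0.55 over 46 members.

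Other genes of the same pathways were counted for comparison, from lists that hold no member. Of 40 other mitosis genes, 0 were called in any table by the DESeq test. In double null against wildtype 39 of 40 were below 0 in the authors' deposited table, with a median of -0.050. Of all genes at a fitted level of at least 50, 47% were below 0 there. The 40 genes were measured in the same guts as the members, so their directions are not a separate test. An unadjusted p below 0.05 was listed for 4 of the 40 in the authors' deposited table for double null, and Bub3, a spindle checkpoint gene, had the smallest p, at -0.14 ± 0.054 (DESeq adjusted p = 0.245). For double null minus Ret null, 37 of 40 were below 0 (36 once centred on the median gene), against 50.6% of all genes at that level. Ncapd2, a condensin subunit gene 6.97 Mb from Ret, had the smallest p at -0.29 ± 0.092 (adjusted p = 0.632, two-sided normal test on the authors' coefficients). Both genotypes of this contrast lack Ret.

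Of 40 other replication genes, 1 was called, in double null guts, where 2.1% of all genes were called. It was Dbf4, which encodes the activating subunit of the CDC7 kinase that fires origins. Its fitted level was 821 in double null, 952 in Ret null, 795 in Sema3d null and 941 in wildtype guts. In the authors' deposited tables its change was -0.20 ± 0.060 in double null (DESeq adjusted p = 0.0483), 0.016 ± 0.057 in Ret null and -0.24 ± 0.094 in Sema3d null guts (DESeq adjusted p = 0.884). Both genotypes without Sema3d were low. Dbf4 lies 3.96 Mb from Sema3d on chromosome 5, and the part of strain background around that locus was not tested. The call did not hold with the error of the 24-gut fit, where the adjusted p from a two-sided normal test was 0.464. Rpa3, a subunit gene of the single-strand binding complex, had changes of -0.25 ± 0.092, -0.25 ± 0.092 and -0.27 ± 0.12 in double null, Ret null and Sema3d null guts, by the authors' deposited tables, with DESeq adjusted p-values of 0.243, 0.161 and 0.993.

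Among 33 cell cycle control genes, 0 were called in any table by the DESeq test, and 3 had an unadjusted p below 0.05 in the authors' deposited Ret null table. Over all genes, 8.43% had such a p there. Rb1, the retinoblastoma gene on which cyclin D kinases act, had a fitted level of 220.5 in double null, 184 in Ret null, 229 in Sema3d null and 241 in wildtype guts. Its change in the authors' deposited tables was -0.12 ± 0.092 in double null and -0.39 ± 0.13 in Ret null guts, and the authors' Ret null value did not pass the adjustment (DESeq adjusted p = 0.0879). Cdk4, a kinase partner of the D-type cyclins, had log2 changes of -0.018 ± 0.045 in double null and 0.10 ± 0.043 in Ret null guts, by the authors' deposited tables, while Ccnd1 was lower in both. Cdk6, the other partner, had log2 changes of 0.040 ± 0.053 and -0.015 ± 0.051 in those genotypes and of -0.20 ± 0.090 in Sema3d null guts, by the authors' deposited tables. Cdk6 lies 8.85 Mb from Sema3d on chromosome 5, and the part of strain background around that locus was not tested. Mycn, a growth-promoting transcription factor gene, had the smallest p of this list in double null guts, at -0.16 ± 0.065 in the authors' deposited table (DESeq adjusted p = 0.338).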

How the data were processed

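Poly-A RNA of 24 whole guts, 6 per genotype, was measured. DESeq 1.24.0, RSEM 1.2.31, Trimmomatic 0.36, FastQC 0.11.5 and STAR (version not given in the sources used here) with GRCm38 are named in the submitters' processing notes. The authors deposited 4 tables of log2 coefficients for intercept, sex and genotype terms, p-values and adjusted p-values of the tested term, and model deviances, used as a score of fit. In 1 table each, the 12 guts of a mutant genotype and wildtype were compared with sex as a covariate, and the fourth table fitted all 24 guts with an interaction. The log base is not named in the headers. Base 2 was used, because fitted totals per gut in the natural base would exceed the read pairs aimed for per library in the labels. Depth per library is unknown, and no value per gut was used. In the Ret null table gene symbols stand under the gene type header and the other way round, which was set right by content.

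The deviance difference gave back the authors' deposited p-values, by a chi-square tail, within 4.91e-09. The error after each ± was derived as the coefficient's size over the square root of that difference. It therefore rests on the authors' dispersion estimates. Double null minus Ret null is the sum of the Sema3d and interaction coefficients of the 24-gut table, with the interaction error divided by the square root of 2 (equal spread per genotype) and a two-sided normal p, adjusted over 22916 genes. Fitted levels are normalised counts from the intercept (mean of both sexes) and the genotype's change. Whether replicate guts came from separate litters is not stated, so p-values measure the spread between these guts. In simulated counts (2000 genes, 200 changed), derived and model errors had a median ratio of 1.00, and derived 95% intervals covered the truth in 94.2, 94.8, 95.7 and 95.5% of genes for Ret null, Sema3d null, double null and double null minus Ret null. Of genes changed by 0.5 log2 units, 97, 96, 98 and 96% were called. Unchanged genes made up 4.37, 8.84, 4.81 and 4.39% of the calls, in the same order. These simulations took the dispersion as known, with the same value for all genes and genotypes. Equal spread was thus built in, so they do not check it for double null minus Ret null. In the data, spread was not equal between the comparisons. Over genes at a fitted level of at least 50, the median derived error was 0.11 for Sema3d null, 0.078 for Ret null and 0.079 for double null. The shares called do not take in the wider errors of Sema3d null guts.

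The members and gene lists were chosen with earlier results of these data known. Every member is accounted for, with the change and error in each comparison for members called there, or for the 6 of smallest p where fewer than 6 were called, and up to 3 genes of smallest p are named per other pathway list and table. Cdk4 and Cdk6 in double null and Ret null guts and Mki67 and Top2a were named as known partners or markers. Calls use an adjusted p below 0.05 over all genes of a table. Alternatives were another threshold, adjustment over genes at a fitted level of at least 50, centring on the median gene, the 24-gut fit, and, for double null minus Ret null, errors from the 12-gut tables. Python 3.11.15, pandas 2.3.3, numpy 2.4.6, scipy 1.17.1 and matplotlib 3.10.9 were used.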

Additional observations from a re-analysis of the deposited data

How the results depend on the processing

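In Ret null against wildtype the number of members called was 2 at an adjusted p below 0.1, and 2 when p-values were adjusted over genes at a fitted level of at least 50, against 1 as reported; the added member both times was Mcm6, higher, and fewer genes tested or a looser threshold is what those alternatives change by construction. The other 21 counts and medians kept within their limits. Over all genes, the number called moved further: for double null minus Ret null it was 6, and 24 with errors from the 12-gut tables; for the interaction 43, 65 at an adjusted p below 0.1 and 24 centred; for Sema3d null 10, and 17 at an adjusted p below 0.1. For Sema3d null, 12360 genes at a fitted level of at least 50 had a derived error in both fits. Of these, the authors' Sema3d null table called 6, and the error of the 24-gut fit 33. Of the values of 21 named members, 124 kept their direction and call, and 2 turned when changes were centred on the median gene, the Ret null values of Cdc20 (-0.00097) and Bub1 (-0.0077), both near 0. Ccnd1 stayed called in both genotypes with the error of the authors' 24-gut fit, at adjusted p = 3.38e-11 for double null and 4.70e-10 for Ret null (two-sided normal test), and centred, at 1.32e-18 and 6.46e-16. No paired analysis was possible because the tables hold no value per gut, and for the same reason no gut was left out in turn. Depth per library is unknown, so counting error could not be separated from spread between guts, and the errors rest on the authors' dispersion estimates: over all genes at that level, errors of the 24-gut fit were 1.242, 0.869 and 1.224 times those of the 12-gut fits for Ret null, Sema3d null and double null. Widths of intervals, and thus the bounds of 0.8 to 1.25 times, would move with them.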

Other observations

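Sex was a covariate in the fits and enters no comparison above. In the authors' deposited 24-gut table, which holds no p-value for sex, the male minus female log2 coefficient was below 0 for 36 of 46 members (78.3%), with a median of -0.027, while 47.2% of all genes at a fitted level of at least 50 were below 0, with a median of 0.0040. By role, 16 of 19 replication genes and 16 of 21 mitosis genes were below 0, with medians of -0.049 and -0.021. The lowest value in the authors' deposited table was -0.14 for Cdc45, the helicase cofactor gene, and the highest was 0.12 for Cdkn1a. Ccnd1 stood at -0.12. Other lists gave a mixed picture in the authors' deposited table, with 28 of 40 other replication genes and 19 of 40 other mitosis genes below 0. These values have no error and no test.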
